A study of Mus musculus with 15 samples.

Results

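Collagens, laminins and integrins were followed across sorted astroglia of 3 regions of the adult mouse brain. Every gene was taken whose symbol on the array platform starts with Col and a digit, with Lama, Lamb or Lamc and a digit, or with Itga or Itgb. That gave 81 of the 18193 genes tested, namely 42 collagen genes, 10 laminin genes and 29 genes named after integrins. Of the last set, 16 encode integrin alpha subunits, 9 encode beta subunits, and 4 (Itgb1bp1, Itgb1bp2, Itgb3bp and Itgbl1) carry an integrin name but encode no subunit. The 81 genes had 166 probe sets, and each of the 49 genes with several was read from the probe set that averaged highest across the 15 arrays.

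The study measured cells of 3 groups with 5 arrays each, sorted from SVZ (the subventricular zone), hippocampus and cerebellum, and compared the forebrain regions with cerebellum. All groups came from male Gli1-CreER;GFAP-GFP;R26tdTomato mice aged 6 to 8 weeks, given 2 doses of 10 mg tamoxifen. CreER is expressed from Gli1, a target of Sonic hedgehog signalling, and switches on tdTomato, while GFP marks cells with an active GFAP promoter; cells with both were sorted 3 weeks after tamoxifen. Each array held amplified RNA pooled from 10 to 12 mice, so that an array is a pool and not an animal, and p-values measure the spread between such pools. In these bulk samples fewer cells of a type and less RNA per cell cannot be told apart.

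Collagens are matrix proteins wound from alpha chains in groups of 3: fibril-forming collagens build fibres, FACIT collagens sit on their surface, and collagen IV forms the sheet of the basement membrane. Laminins are the other main component of basement membranes, each made of an alpha, a beta and a gamma chain. Integrins are cell surface receptors of 1 alpha and 1 beta subunit that bind these proteins, and in the brain astroglial endfeet meet the basement membranes of blood vessels and of the pial surface.

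Values are the authors' RMA values, read as log2 signal, on which a difference of 1 is a 2-fold change. The array medians lay between 1.12 and 1.31, and values near them cannot be told from background. The 14 measured astroglia markers averaged between 7.74 (hippocampus 2) and 9.77 (cerebellum 4) over the arrays. Their region means were 8.57 in SVZ, 8.55 in hippocampus and 9.20 in cerebellum. Cerebellum arrays were the most alike (correlations over all genes of 0.939 to 0.970), against 0.763 to 0.894 among SVZ arrays and 0.791 to 0.884 among hippocampus arrays.

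Most of these genes had a low signal in all regions. Of the 81 genes, 50 (61.7%) stayed at or under 3 on all 15 arrays, against 50.2% of all genes tested. A region mean above 3 was reached by 15 genes, and 6 of them (Itgav, Itga6, Itgb1, Itgb5, Lama2 and Lamb2) had all 3 region means above 3. By class, 0 of 42 collagen genes had all 3 region means above 3, against 4 of 25 integrin subunits and 2 of 10 laminin chains. Of all 18193 genes tested, 5997 had a region mean above 3 and 3700 had all 3 above it. Integrin subunits and laminin chains thus did not exceed the share of all genes.

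**Figure D1:**
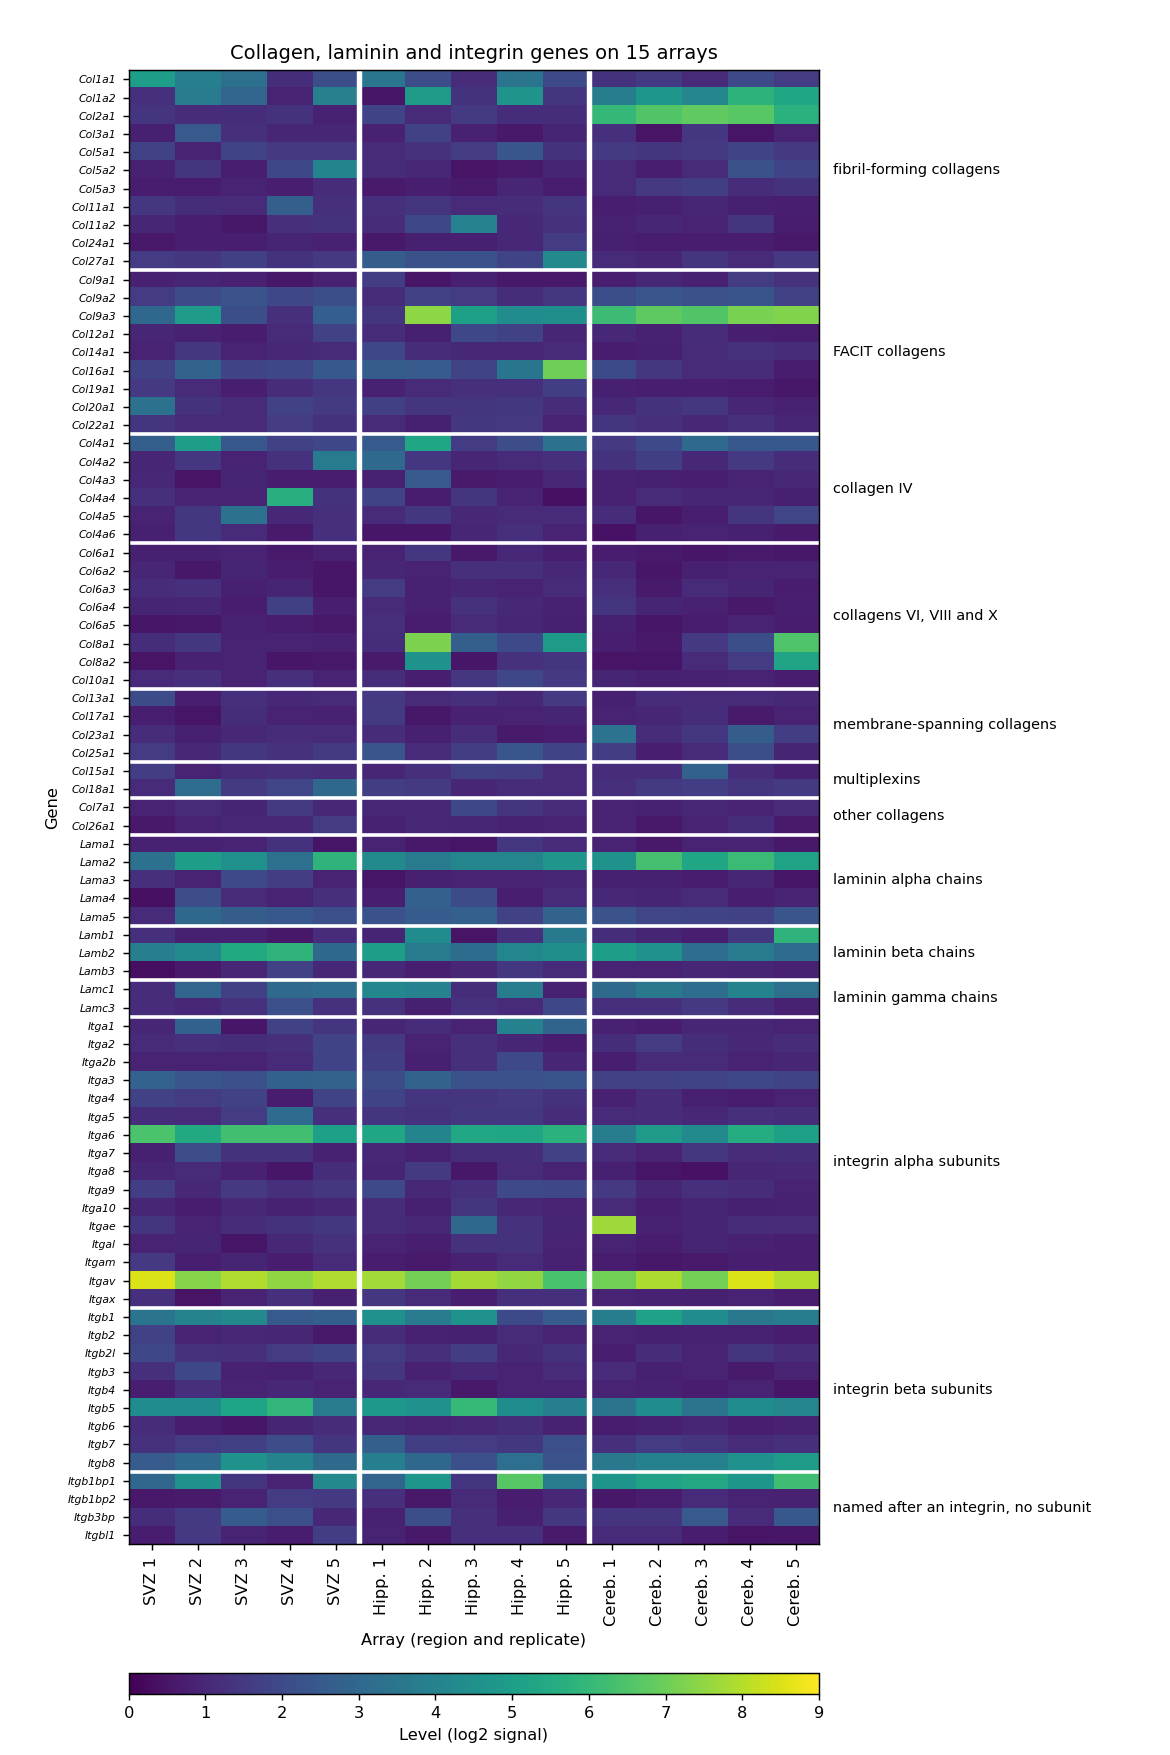
Log2 signal of the 81 collagen, laminin and integrin genes (rows, grouped by class) on the 15 arrays (columns: 5 SVZ, 5 hippocampus, 5 cerebellum), coloured from 0 to 9. Col2a1 and Col9a3 are bright on all 5 cerebellum arrays, Itgav is bright on all 15, and most rows are dark throughout.

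Few genes of the families passed the test between regions. With limma fitted over all 15 arrays and the Benjamini-Hochberg adjustment taken over every gene tested (called at an adjusted p under 0.05, two-sided), 1 of 81 was higher in SVZ than in cerebellum, Itga3, and 2 were lower, Col2a1 and Col9a3. The shares of 1.23% higher and 2.47% lower stood beside 1.03% and 4.47% of all genes. In hippocampus against cerebellum, 1 gene was higher, Col27a1, and 3 were lower, Col2a1, Col5a3 and Col9a2, or 1.23% and 3.70%, beside 0.808% and 3.97% of all genes. These shares lay near or below those of all genes. At an unadjusted p under 0.05 stood 15 of the 81 genes (18.5%) in SVZ and 16 (19.8%) in hippocampus, beside 21.1% and 20.1% of all genes. By the threshold of the series design, a more than 4-fold difference at an unadjusted p under 0.01, Col2a1 and Col9a3 were picked in SVZ against cerebellum, where 3.21% of all genes were, and Col2a1 and Col16a1 in hippocampus against cerebellum, where 2.87% were.

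Between the forebrain regions limma called 0 of 81 genes, with 7 (8.64%) at an unadjusted p under 0.05, beside 7.02% of all genes; of all genes it called 0.0165% higher and 0.0055% lower in SVZ. The median difference of the 81 genes was 0.16 in SVZ minus cerebellum and 0.15 in hippocampus minus cerebellum, where all genes had 0.07 in each. Both comparisons share the 5 cerebellum arrays.

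Among fibril-forming collagens, Col2a1, the chain of collagen II of cartilage, separated cerebellum from both forebrain regions. Its level was 1.34, 1.16, 1.17, 1.31 and 0.84 in SVZ, 1.81, 1.06, 1.52, 1.19 and 1.17 in hippocampus, and 5.98, 6.56, 6.81, 6.66 and 5.76 in cerebellum. All 10 forebrain arrays lay near the array median and all 5 cerebellum arrays far above it, with no overlap. The difference was −5.19 ± 0.22 (SE) in SVZ minus cerebellum, 36.5-fold lower (limma adjusted p = 1.82e-08), and −5.00 ± 0.22 in hippocampus minus cerebellum, 32.1-fold lower (limma adjusted p = 3.00e-08). Since the forebrain arrays were near background, these folds depend on the background level. Over 30 other settings the SVZ difference stayed between −5.34 and −4.92 and the hippocampus difference between −5.15 and −4.71, each called in all of them. The platform had 1 probe set for Col2a1.

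FACIT collagen IX, made of the chains Col9a1, Col9a2 and Col9a3, is the collagen that decorates collagen II fibrils in cartilage. Col9a1 averaged 0.81 in SVZ, 0.83 in hippocampus and 1.09 in cerebellum, all under the array medians, and was not called. Col9a3 had levels of 3.01, 4.97, 2.17, 1.24 and 2.70 on SVZ arrays, 1.40, 7.47, 5.11, 4.34 and 4.47 on hippocampus arrays, and 6.18, 6.76, 6.55, 7.20 and 7.29 on cerebellum arrays. All SVZ arrays lay under all cerebellum arrays, while hippocampus 2 was above every cerebellum array and the other 4 hippocampus arrays were under them. In SVZ minus cerebellum the difference was −3.98 ± 0.89 (limma adjusted p = 0.0172), and a second probe set gave −4.05 and was called too, whereas the remaining probe set was near background in all regions. Hippocampus minus cerebellum gave −2.24 ± 0.89 and did not pass the test (limma adjusted p = 0.18); without hippocampus 2 it was −2.97 and passed (limma adjusted p = 0.0372). The mean level of the 12 probe sets for poly-A spike-in RNA, which is not from the cells, lay between 11.04 and 13.1 on SVZ arrays, 11.5 and 12.9 on hippocampus arrays and 8.49 and 12.3 on cerebellum arrays, and was lowest on cerebellum 4 and 5. The SVZ call of Col9a3 was lost without those arrays (−3.68, limma adjusted p = 0.133) and with the spike-in level as a covariate (−2.20, limma adjusted p = 0.558). Calls among all 18193 genes in SVZ against cerebellum fell too. They went from 188 higher and 814 lower to 71 and 297 without those arrays, and to 40 and 144 with the covariate.

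The partner chain Col9a2 was lower in hippocampus than in cerebellum by a smaller amount. Its arrays read 1.13, 1.74, 1.57, 1.17 and 1.43 in hippocampus, against 2.16, 2.37, 2.24, 2.33 and 1.74 in cerebellum, so that hippocampus 2 reached the lowest cerebellum array. The difference was −0.76 ± 0.18 (limma adjusted p = 0.0256). It did not pass in SVZ, whose mean was 2.01 against 2.17 in cerebellum (−0.15, limma adjusted p = 0.637). The call in hippocampus was lost in 12 of 30 other settings, among them without hippocampus 1 or 4 and without cerebellum 1, 2, 3 or 4.

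The promoter of Col9a2 is shown as that of a called cartilage collagen, from RefSeq (GRCm38.p6, chr4:121039316-121039615, plus strand, 250 bases before the gene start and 50 after). Capitals mark GGGCGG, the core of the GC box, on either strand. That motif was found on either strand in 35.7% of 32851 promoter windows of the same length. ACAAAG and ACAATG, cores of the motif read by SOX factors such as SOX9, the activator of Col2a1 in cartilage, were searched on both strands and stand nowhere in this window; 18.7% and 12.6% of all windows hold them.
Col9a2: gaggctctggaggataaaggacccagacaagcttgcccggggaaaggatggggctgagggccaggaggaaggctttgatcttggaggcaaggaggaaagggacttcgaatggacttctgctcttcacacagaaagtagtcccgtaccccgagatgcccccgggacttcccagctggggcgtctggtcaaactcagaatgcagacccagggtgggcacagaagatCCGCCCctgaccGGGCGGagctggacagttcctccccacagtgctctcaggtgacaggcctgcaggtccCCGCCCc

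The other calls among fibrillar collagens were small and close to background. Col27a1, a fibrillar collagen of cartilage, had 2.64, 2.22, 2.26, 1.85 and 4.25 on hippocampus arrays and 1.12, 0.96, 1.39, 1.12 and 1.49 on cerebellum arrays. Every hippocampus array was above every cerebellum array, hippocampus 5 by most. The difference was 1.43 ± 0.34 (limma adjusted p = 0.0286), and a second probe set gave 0.19 without passing. The call was lost without hippocampus 1 (limma adjusted p = 0.0546), without cerebellum 1, 2 or 4, and in 5 further settings of 30. SVZ arrays, at 1.32 to 1.71, gave 0.29 against cerebellum (limma adjusted p = 0.648).

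Col5a3, a chain of collagen V, which sets the width of collagen I fibrils, read 0.65, 0.74, 0.66, 0.96 and 0.67 in hippocampus and 1.10, 1.48, 1.67, 1.13 and 1.33 in cerebellum. All these values lie about the array median, although the groups do not overlap. The difference was −0.61 ± 0.15 (limma adjusted p = 0.0290), and the other probe set had the opposite sign (0.37). This call was lost in 15 of 30 settings, among them without hippocampus 1, 3 or 5 and without cerebellum 2, 3 or 5. In SVZ minus cerebellum it was −0.51 and did not pass (limma adjusted p = 0.0558).

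Both chains of collagen I, the main fibrillar collagen of connective tissue, had region means above 3, in different regions. Col1a1 read 5.02, 3.88, 3.32, 1.19 and 2.17 in SVZ, 3.52, 2.13, 1.15, 3.47 and 1.97 in hippocampus, and 1.32, 1.54, 1.07, 1.97 and 1.57 in cerebellum. The SVZ arrays spread from background to 5.02 and overlapped cerebellum; the difference was 1.62 ± 0.63 and did not pass (limma adjusted p = 0.157). It passed with the mean of its probe sets (1.24, limma adjusted p = 0.0111) and with array weights (limma adjusted p = 0.0486).

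Col1a2 stood the other way round, at 1.22, 3.72, 2.93, 0.87 and 3.93 in SVZ, 0.56, 4.89, 1.31, 4.65 and 1.35 in hippocampus, and 3.78, 4.72, 4.17, 5.82 and 5.30 in cerebellum. All cerebellum arrays were above background, while each forebrain group held both low and high arrays. The differences were −2.22 ± 0.89 (limma adjusted p = 0.171) and −2.21 ± 0.89 (limma adjusted p = 0.188). Its other probe sets had cerebellum means of 1.60 and 0.83, so that the level in cerebellum rests on 1 of 3 probe sets. Col3a1, the chain of collagen III made with collagen I in most tissues, had a cerebellum mean of 0.91.

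Col16a1, a further FACIT collagen, read 1.73, 2.86, 1.83, 1.91 and 2.47 in SVZ, 2.64, 2.57, 1.84, 3.51 and 7.00 in hippocampus, and 2.02, 1.44, 1.09, 1.13 and 0.70 in cerebellum. Hippocampus 5 stood far above all others. The hippocampus difference was 2.24 ± 0.73 and did not pass (limma adjusted p = 0.103); without hippocampus 5 it was smaller, 1.36, and passed (limma adjusted p = 0.0497).

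**Figure D2:**
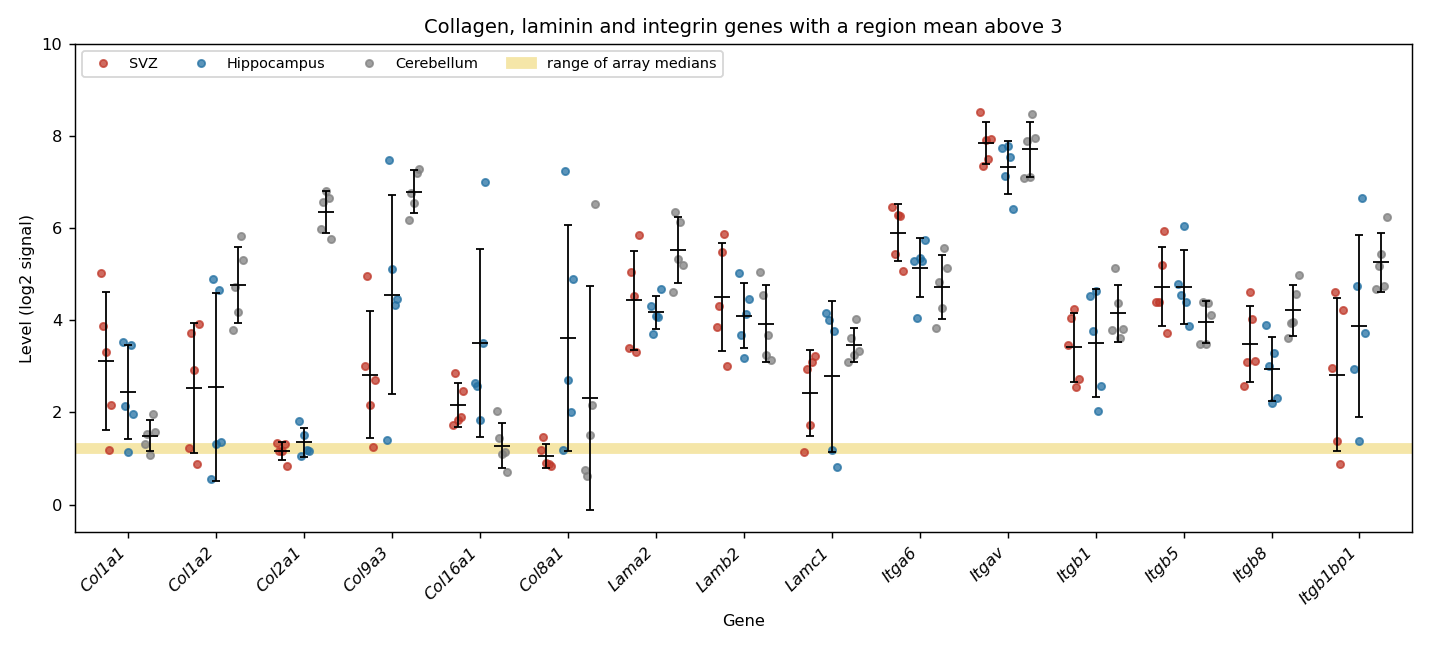
Log2 signal of the 15 genes with a region mean above 3; points are arrays (5 per region), black marks the mean and SD, and the band is the range of the array medians. Col2a1 alone among them has both forebrain groups inside or near the band and all cerebellum arrays above 5.

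Collagen IV had 6 genes measured and 0 called in any comparison by limma, with 0 at an unadjusted p under 0.05, where all genes had 21.1%, 20.1% and 7.02% in the 3 comparisons; with 6 genes such a count says little. Its main chains Col4a1 and Col4a2 are made together and assembled into 1 molecule, and their genes lie back to back. Col4a1 read 2.71, 5.01, 2.43, 1.78 and 1.93 in SVZ, 2.55, 5.33, 1.57, 2.11 and 3.37 in hippocampus, and 1.51, 2.00, 3.08, 2.47 and 2.46 in cerebellum. Col4a2 read 0.96, 1.41, 0.87, 1.28 and 3.73 in SVZ, 3.07, 1.43, 0.96, 1.07 and 1.24 in hippocampus, and 1.31, 1.68, 1.02, 1.49 and 1.16 in cerebellum. Col4a1 was highest on SVZ 2 and hippocampus 2, where Col4a2 was at 1.41 and 1.43; Col4a2 was highest on SVZ 5 and hippocampus 1. The 14 endothelial markers averaged 3.17 on SVZ 2 and 3.05 on hippocampus 2, against 1.48 to 2.59 on the other 13 arrays; 7 of them were highest on 1 of these 2 arrays and 7 elsewhere. Pericyte and smooth muscle markers were also highest there, at 3.67 and 3.21, against 1.54 to 3.20 on the others. Without these 2 arrays, a setting chosen after the values were seen, Col4a1 differed by −0.09 in SVZ minus cerebellum, against 0.47 with them. In hippocampus minus cerebellum it differed by 0.10, against 0.68. Both arrays are the highest of their regions for Col4a1, so these falls followed from the choice and test no cause. The part of vessel cells in its level was not tested.

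The promoters of this pair are shown because the genes share theirs. In RefSeq (GRCm38.p6) their starts lie 21 bases apart on opposite strands of chromosome 8, and the windows of 300 bases have 78 bases in common (chr8:11312777-11312854), in capitals in both. Col4a2 is at chr8:11312555-11312854 on the plus strand and Col4a1 at chr8:11312777-11313076 on the minus strand. G and C make up 73.7% and 74.0% of the bases.
Col4a2: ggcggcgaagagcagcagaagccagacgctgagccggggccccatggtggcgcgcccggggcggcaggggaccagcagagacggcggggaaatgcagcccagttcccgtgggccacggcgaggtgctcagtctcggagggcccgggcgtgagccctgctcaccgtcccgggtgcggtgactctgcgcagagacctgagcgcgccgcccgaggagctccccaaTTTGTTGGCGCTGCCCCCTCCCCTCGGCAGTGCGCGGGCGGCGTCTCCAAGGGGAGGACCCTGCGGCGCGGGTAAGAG
Col4a1: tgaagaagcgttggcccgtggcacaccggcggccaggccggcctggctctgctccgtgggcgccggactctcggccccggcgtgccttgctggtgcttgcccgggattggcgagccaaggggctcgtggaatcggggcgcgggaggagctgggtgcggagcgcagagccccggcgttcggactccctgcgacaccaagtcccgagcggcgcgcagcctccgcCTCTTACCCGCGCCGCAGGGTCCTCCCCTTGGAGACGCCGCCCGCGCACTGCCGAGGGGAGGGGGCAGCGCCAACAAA

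Of the minor collagen IV chains, Col4a4, which belongs to the basement membrane of the kidney filter, read 5.68 on SVZ 4 and 0.41 to 1.83 on the other 14 arrays. Col4a3, its partner chain there, read 0.67 on that array. The other probe sets of Col4a4 had SVZ means of 0.84 and 0.77, so that the high value rests on 1 probe set.

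Among network collagens, Col8a1 and Col8a2, the chains of the short collagen VIII found in vessel walls and under the corneal endothelium, were high on single arrays. Col8a1 read 1.18, 1.46, 0.90, 0.87 and 0.84 in SVZ, 1.19, 7.24, 2.71, 2.00 and 4.89 in hippocampus, and 0.75, 0.61, 1.51, 2.16 and 6.52 in cerebellum. For Col8a2 the values were 0.49, 0.81, 0.90, 0.54 and 0.63 in SVZ, 0.65, 4.61, 0.55, 1.30 and 1.34 in hippocampus, and 0.47, 0.52, 1.06, 1.56 and 5.25 in cerebellum. The laminin chain Lamb1 read 1.24, 0.80, 0.79, 0.58 and 1.16 in SVZ, 0.93, 4.38, 0.49, 1.20 and 3.65 in hippocampus, and 1.18, 0.93, 0.75, 1.45 and 5.85 in cerebellum. Hippocampus 2 and cerebellum 5 were the highest arrays of their regions for all 3 genes, and hippocampus 5 was raised for Col8a1 and Lamb1. No SVZ array was raised for any of them.

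The 10 measured choroid plexus markers, among them Ttr, Kl, Folr1 and Kcnj13, averaged 7.84 on hippocampus 2, 6.01 on hippocampus 5 and 7.15 on cerebellum 5, against 1.60 to 3.87 on the other 12 arrays and 1.60 to 2.32 in SVZ. The 11 ependymal markers averaged 3.45, 2.71 and 3.09 on those 3 arrays, against 1.06 to 1.79 on the others, and fibroblast and meningeal markers 3.25, 2.17 and 1.85, against 1.10 to 2.03. Leaving out those 3 arrays was chosen after the values were seen. They include the highest arrays of Col8a1, Col8a2 and Lamb1, so changes without them followed from that choice and test no cause. With those 3 arrays left out, Col8a1 differed by −0.21 in SVZ minus cerebellum, against −1.26 with them. In hippocampus minus cerebellum it differed by 0.71, against 1.30. Col8a2 and Lamb1 then differed by −0.23 and −0.16 in SVZ minus cerebellum, against −1.10 and −1.12, and by −0.07 and −0.20 in hippocampus minus cerebellum, against −0.08 and 0.10. None of these values passed the test with or without the 3 arrays, and the part of choroid plexus, ependymal or meningeal cells in them was not tested. Col9a3, whose highest value was on hippocampus 2, differed by −3.85 in SVZ minus cerebellum without the 3 arrays (limma adjusted p = 0.0262, still called) and by −3.06 in hippocampus minus cerebellum, against −2.24 with them (limma adjusted p = 0.101). Col2a1 was low on hippocampus 2 and hippocampus 5 (1.06 and 1.17).

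**Figure D3:**
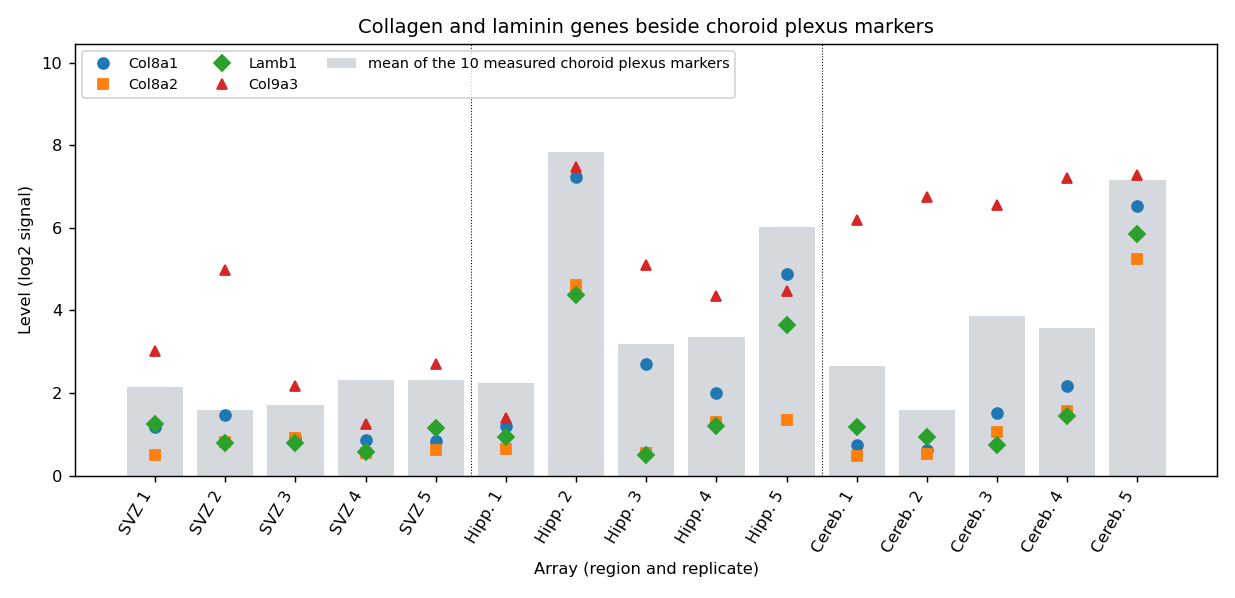
Log2 signal of Col8a1, Col8a2, Lamb1 and Col9a3 (symbols) on each of the 15 arrays, over bars that give the mean of the 10 measured choroid plexus markers. Col8a1, Col8a2 and Lamb1 are high on hippocampus 2 and cerebellum 5, which have tall bars. On hippocampus 5, also with a tall bar, Col8a1 and Lamb1 are raised and Col8a2 reads 1.34. Col9a3 is high on all 5 cerebellum arrays.

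Of the 10 laminin chains limma called 0 in each comparison with cerebellum, with 2 at an unadjusted p under 0.05 in SVZ (20% of them, beside 21.1% of all genes) and 1 in hippocampus (10%, beside 20.1%). The chains with a region mean above 3 were an alpha, a beta and a gamma chain, Lama2, Lamb2 and Lamc1. Lama2, the alpha chain whose loss causes a muscular dystrophy with brain involvement, read 3.40, 5.05, 4.53, 3.32 and 5.85 in SVZ, 4.32, 3.70, 4.10, 4.08 and 4.68 in hippocampus, and 4.62, 6.35, 5.34, 6.13 and 5.20 in cerebellum. Hippocampus 5 just passed cerebellum 1, the lowest of its group. The differences were −1.10 ± 0.46 (95% interval −2.09 to −0.10, limma adjusted p = 0.194) and −1.35 ± 0.46 (−2.35 to −0.36, limma adjusted p = 0.118); with only hippocampus and cerebellum fitted the second passed (limma adjusted p = 0.0428).

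Lamb2, a beta chain of vessel basement membranes, averaged 4.50 ± 1.17 in SVZ, 4.10 ± 0.71 in hippocampus and 3.93 ± 0.84 in cerebellum (SD, n = 5 each). The intervals, −0.61 to 1.75 and −1.01 to 1.35 against cerebellum, hold 0 and reach past a 2-fold difference. Lamc1, the gamma chain of most laminins, was uneven in the forebrain, at 1.14, 2.94, 1.72, 3.10 and 3.23 in SVZ and 4.15, 4.00, 1.18, 3.77 and 0.82 in hippocampus, against 3.10, 3.62, 3.25, 4.02 and 3.33 in cerebellum. All 5 cerebellum arrays were above 3 and each forebrain group held arrays at the median. Lama1, an alpha chain of the pial basement membrane, had means of 0.88, 0.89 and 0.77, and Lama4, the alpha chain of vessel walls, of 1.14, 1.48 and 0.93, in SVZ, hippocampus and cerebellum.

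The integrin alpha subunits with a region mean above 3 were Itgav and Itga6, both in the top 10% of genes in SVZ and hippocampus. Itgav, the alpha subunit that binds vitronectin, fibronectin and latent TGF-beta, read 8.53, 7.35, 7.92, 7.51 and 7.93 in SVZ, 7.74, 7.13, 7.79, 7.54 and 6.41 in hippocampus, and 7.10, 7.90, 7.12, 8.48 and 7.96 in cerebellum. The 3 groups overlap throughout. The differences were 0.14 in SVZ minus cerebellum (95% interval −0.58 to 0.85) and −0.39 in hippocampus minus cerebellum (−1.10 to 0.32). For this probe set the first interval does not reach a 2-fold difference. Further probe sets with means above 3 gave −0.28 and −0.76 in SVZ minus cerebellum, and those near background −0.04 and 0.54, without passing.

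Itga6, a laminin-binding subunit used to enrich neural stem cells, read 6.46, 5.45, 6.29, 6.26 and 5.07 in SVZ, 5.29, 4.06, 5.35, 5.28 and 5.75 in hippocampus, and 3.83, 4.83, 4.26, 5.57 and 5.13 in cerebellum. SVZ 1, 3 and 4 were above every cerebellum array and the other 2 were not. The difference in SVZ was 1.18 ± 0.39 (95% interval 0.35 to 2.02, limma adjusted p = 0.0981) and did not pass, except after quantile normalization (1.64, limma adjusted p = 0.0467). In hippocampus it was 0.42 ± 0.39 (limma adjusted p = 0.546). The second probe set gave 1.31 in SVZ and −0.21 in hippocampus, neither past the test.

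Itga3, another laminin-binding subunit, gave the 1 call of the integrin family. It read 2.84, 2.37, 2.21, 2.81 and 2.85 in SVZ, 2.10, 2.87, 2.25, 2.25 and 2.33 in hippocampus, and 1.73, 1.76, 1.86, 1.96 and 1.85 in cerebellum. Both forebrain groups lay above all cerebellum arrays, at a level under 3. SVZ minus cerebellum was 0.78 ± 0.17, 1.72-fold higher (limma adjusted p = 0.0165), and hippocampus minus cerebellum was 0.53 ± 0.17 and did not pass (limma adjusted p = 0.104). The 2 other probe sets gave 0.29 and 0.21 without passing, and the call was lost with the mean of the probe sets (limma adjusted p = 0.0628) and in 5 further settings of 30, among them without cerebellum 4 and 5 (limma adjusted p = 0.0806).

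Of the 9 beta subunits limma called 0 in each comparison with cerebellum, with 1 at an unadjusted p under 0.05 in SVZ (11.1%, beside 21.1% of all genes) and 2 in hippocampus (22.2%, beside 20.1%). Itgb1, the partner of most alpha subunits, averaged 3.41 ± 0.76 in SVZ, 3.50 ± 1.17 in hippocampus and 4.15 ± 0.62 in cerebellum (SD, n = 5 each). Only 2 of its 6 probe sets had a region mean above 3. Itgb5, a partner of Itgav, averaged 4.73 ± 0.86 in SVZ, 4.73 ± 0.81 in hippocampus and 3.97 ± 0.46 in cerebellum. It had 95% intervals of −0.17 to 1.70 and −0.18 to 1.70 against cerebellum.

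Itgb8, the partner with which Itgav activates TGF-beta in the brain, ran the other way, at 2.57, 3.09, 4.62, 4.02 and 3.11 in SVZ, 3.90, 3.00, 2.21, 3.30 and 2.32 in hippocampus, and 3.61, 3.94, 3.97, 4.57 and 4.98 in cerebellum. Hippocampus 1 was the array of its group within the cerebellum range. The differences were −0.73 ± 0.42 in SVZ (limma adjusted p = 0.337) and −1.27 ± 0.42 in hippocampus (limma adjusted p = 0.107), neither past the test. The remaining partners of Itgav, Itgb3 and Itgb6, had region means of 0.80 to 1.16, and Itgb4, the partner of Itga6 in epithelia, of 0.77 to 0.97.

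**Figure D4:**
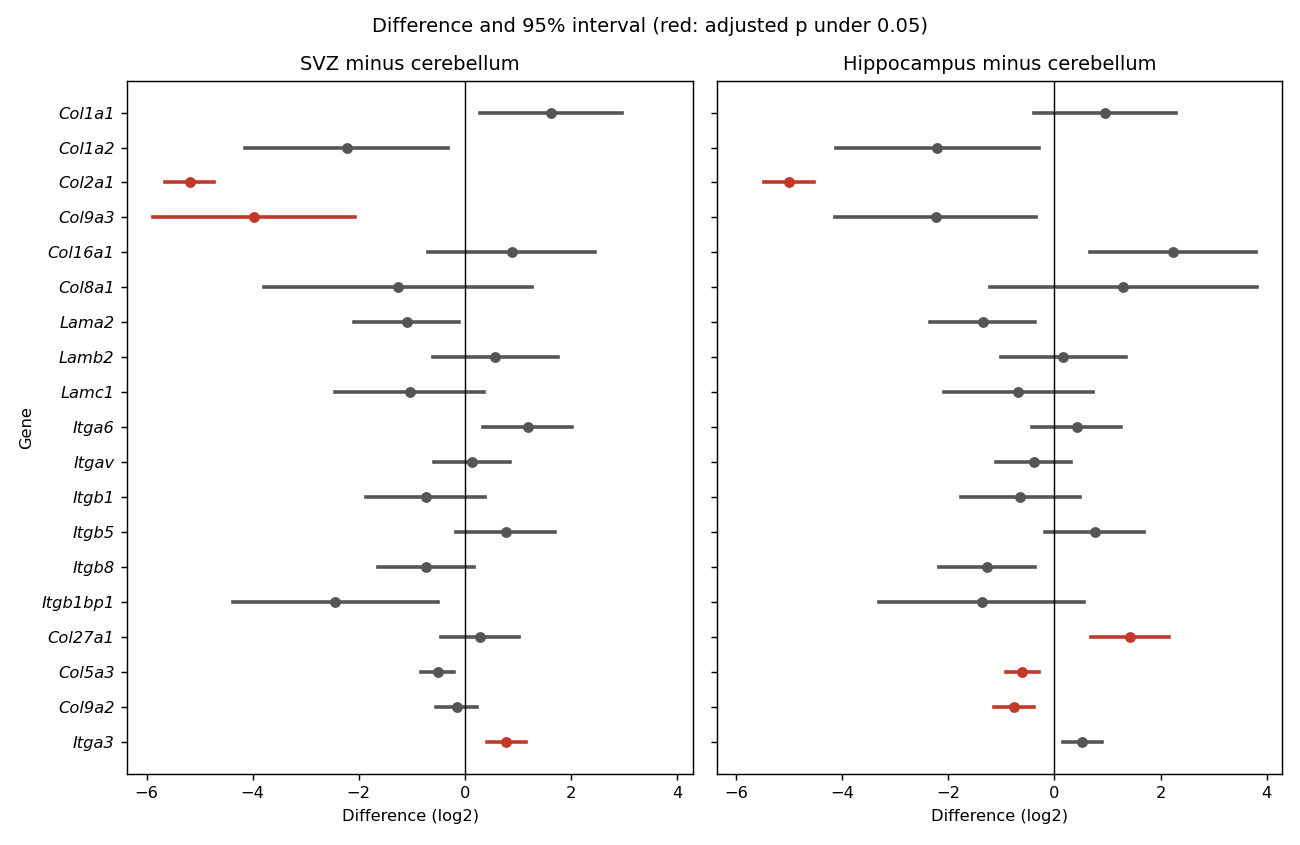
Difference (log2) from cerebellum with its 95% interval for the 15 genes with a region mean above 3 and the 4 further called genes, SVZ on the left and hippocampus on the right, red where the limma adjusted p is under 0.05. The intervals of Col2a1 are short and far from 0, and those of Col8a1 span over 4 log2 units.

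Itgb2, the beta subunit of leukocyte integrins, and the 3 alpha subunits measured that pair with it were near or under the array medians on most arrays, where some markers of microglia were readable. Itgam (CD11b) read 1.50, 0.75, 0.94, 0.67 and 1.06 in SVZ, 0.71, 0.65, 0.84, 1.06 and 0.84 in hippocampus, and 0.68, 0.57, 0.64, 0.77 and 0.75 in cerebellum. Its beta partner Itgb2 averaged 1.06, 0.94 and 0.81, Itgax 0.93, 1.16 and 0.82, and Itgal 0.93, 1.03 and 0.82 in SVZ, hippocampus and cerebellum. SVZ 1 held the highest value of Itgam and of Itgb2 (1.73), and no value of the 4 genes passed 2. The 17 measured microglia markers averaged 2.76 to 5.58 over SVZ arrays, 2.59 to 4.37 over hippocampus arrays and 1.40 to 2.54 over cerebellum arrays. Of these, 5 were called higher in SVZ (Csf1r, Laptm5, C1qa, Fcrls and Ctss) and 2 in hippocampus (Csf1r and Laptm5), while others such as Tmem119, Trem2 and P2ry12 averaged 1.35, 1.20 and 1.52 in SVZ. Itga4 and Itgb7, integrin subunits of lymphocytes and other cells, averaged 1.52 and 1.62 in SVZ, 1.46 and 1.93 in hippocampus and 0.86 and 1.30 in cerebellum and were not called.

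**Figure D5:**
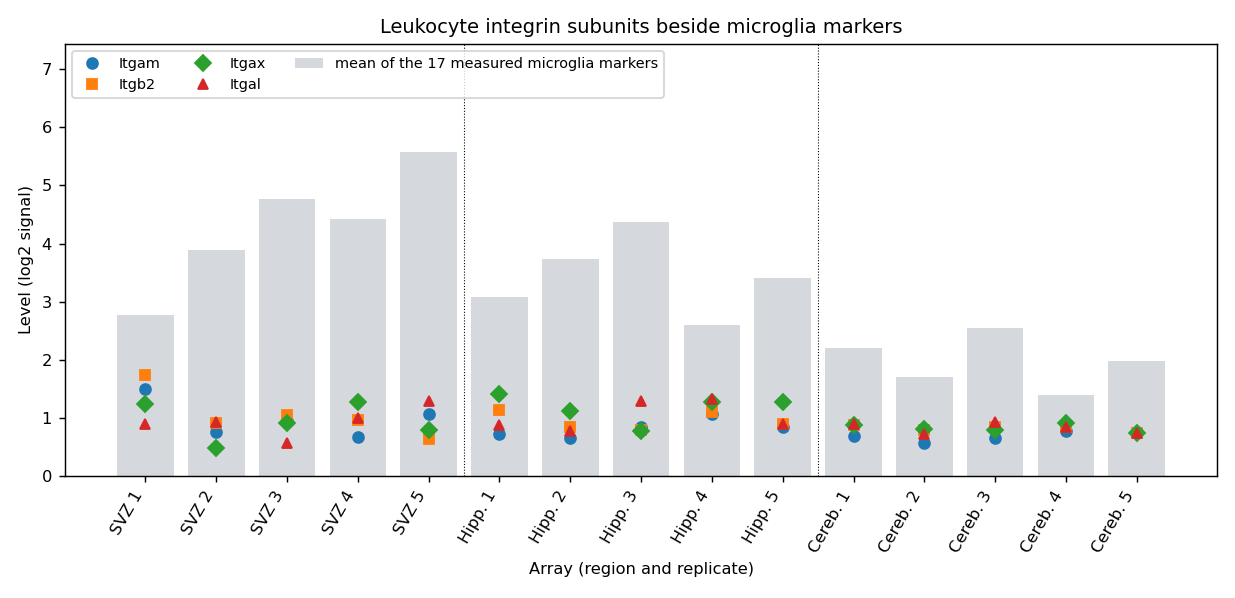
Log2 signal of the leukocyte integrin subunits Itgam, Itgb2, Itgax and Itgal (symbols) on each of the 15 arrays, over bars that give the mean of the 17 measured microglia markers. Each forebrain bar is taller than every cerebellum bar, while the 4 genes stay under 2 on every array.

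Itgae (CD103), the alpha subunit of tissue-resident T cells, read 7.69 on cerebellum 1, 2.99 on hippocampus 3 and 0.84 to 1.45 on the other 13 arrays. Its second probe set had region means of 0.81 to 1.03. Cerebellum 1 also had the highest mean of the 15 neuron markers, 2.54, against 1.22 to 1.89 elsewhere, and hippocampus 3 the lowest, 1.22; the part of neurons in the Itgae value was not tested.

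Of the genes that encode no subunit, Itgb1bp1, whose protein binds the tail of integrin beta 1 and restrains it, read 2.97, 4.62, 1.39, 0.88 and 4.22 in SVZ, 2.94, 4.74, 1.37, 6.65 and 3.72 in hippocampus, and 4.67, 5.18, 5.43, 4.75 and 6.25 in cerebellum. All SVZ arrays were under the cerebellum arrays and spread widely. The differences were −2.44 ± 0.90 (limma adjusted p = 0.140) and −1.37 ± 0.90 (limma adjusted p = 0.398) and did not pass.

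Around these families, genes of matrix handling were counted from lists of partners. Of 26 genes for collagen synthesis and processing, 0 were higher and 2 lower in each forebrain region. The counts of this and the next lists stand beside 1.03% of all genes higher and 4.47% lower in SVZ and 0.808% and 3.97% in hippocampus; counts this small are a description of the lists. Sparc, a collagen-binding matrix protein of Bergmann glia and other astroglia, averaged 9.43 in SVZ, 8.40 in hippocampus and 11.08 in cerebellum, and was lower in both forebrain regions (−1.65 and −2.68, limma adjusted p = 0.000648 and 7.10e-06). Plod2, which hydroxylates collagen lysines, was lower in both as well (−1.51 and −2.00).

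Of 27 basement membrane and matrix partners, SVZ had 2 higher and 2 lower genes, and hippocampus 1 higher and 3 lower. Tnc, the integrin ligand tenascin C, averaged 4.09 in SVZ, 3.91 in hippocampus and 7.66 in cerebellum, differences of −3.57 and −3.75 that both passed. Ntn4, a laminin-related netrin, and Lgi1, a secreted synaptic ligand, were called higher in SVZ (2.90 and 3.31). They averaged 3.96 and 4.24 in hippocampus, also above cerebellum (2.42 and 2.40), without passing there. Tgfb2 was called higher in hippocampus (3.53), and averaged 4.09 in SVZ against 2.31 in cerebellum without passing there. Thbs3, a thrombospondin, was lower in SVZ (−1.47). It averaged 1.20 in SVZ, 1.10 in hippocampus and 2.66 in cerebellum, so hippocampus was at least as low. Nid1, which links laminin to collagen IV, was lower in hippocampus, at 1.77 against 4.14 in cerebellum, and averaged 2.52 in SVZ without passing there.

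Of 16 matrix receptors other than integrins, 1 was higher and 0 lower in each forebrain region. It was Adgrg1, an adhesion receptor for collagen III and for transglutaminase, which averaged 5.13 in SVZ, 5.70 in hippocampus and 2.58 in cerebellum (2.55 and 3.12, limma adjusted p = 0.00211 and 0.000395). Of 32 integrin adaptors and signalling genes, 0 were higher, 4 were lower in SVZ and 2 in hippocampus. Tns3, a tensin that binds the tails of beta subunits, was lower in both (−2.02 and −1.76), and the tetraspanin Cd9 was lower in SVZ (−2.23). Cd9 averaged 4.65 in hippocampus against 5.70 in cerebellum without passing there. Rap1a, a GTPase that activates integrins, was lower in hippocampus (−1.40). It averaged 4.22 in SVZ, 4.53 in hippocampus and 5.93 in cerebellum, so SVZ was at least as low. Only the 2 largest called differences each way are named per region.

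Of 20 matrix-cleaving proteases and inhibitors, SVZ had 1 higher and 1 lower gene, and hippocampus 1 higher and 2 lower. The inhibitor Timp3 was higher in both (1.57 and 1.39), and Timp4 was lower in both, averaging 9.15 in SVZ, 8.74 in hippocampus and 11.58 in cerebellum. The protease Adam10 was lower in hippocampus (−1.71), at 4.46 against 6.17 in cerebellum, and averaged 4.71 in SVZ without passing there. limma called 0 genes of these 5 lists in SVZ against hippocampus. The 2 smallest p-values of each list there belonged to Sparc and Loxl3, Ntn4 and Tgfb2, Cd47 and Bcam, Tns2 and Cd9, and Timp2 and Mmp17, with limma adjusted p from 0.311 to 0.709.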

How the data were processed

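Affymetrix mouse arrays, 15 in number, were grouped by the sample titles into SVZ, hippocampus and cerebellum. Per the submitters' processing notes the authors applied RMA; the deposited values are read here as log2 signal, since no log base is given and the highest value was 15.08. No detection calls were used, and precision is set by the number of arrays. The platform annotation pairs 34945 of 45101 probe sets with 1 gene symbol, which gave 18193 genes after updating symbols through Entrez identifiers; 932 probe sets with several symbols and 64 control probe sets were left out.

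limma 3.58.1 in R 4.3.3 fitted region over all 15 arrays, with p-values adjusted over all genes. The fit was tested on simulated data. Genes named with values were those called in a comparison and those with a region mean in the top 10% of genes, and, in the partner lists, the 2 largest called differences up and down (with none called, the 2 smallest p-values). Further genes with a region mean above 3, and Col8a2, Lamb1, Col4a1, Col4a2, Col4a4, Col3a1, Col4a3, Col9a1, Lama1, Lama4, Itgae, Itgb3, Itgb4, Itgb6, Itgb7, Itga4 and the leukocyte integrins, were chosen after their values were seen. The genes and lists were chosen with earlier results of these data known. Of the 81 genes, 59 had a RefSeq promoter. Alternative settings were a replicate block, other scalings, weights, filters and thresholds, a spike-in covariate, and arrays left out. Plots used Python 3.11.15 and matplotlib 3.10.9.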

Additional observations from a re-analysis of the deposited data

Results flagged for a closer look

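With 5 arrays a region, the highest or lowest array was set against the gap expected in such a group. Among 29 genes in 3 regions, 11 of 87 groups held an array that far from the others. The cut-off was one that about 1 in 20 groups pass by chance. Of the 11, 9 came from the 10 genes singled out after their values were seen. The other 19 genes, named by a call or by their level in these same values, gave 2 of 57. Both sets were chosen from these data, so neither number says anything about chance. Col8a1 at 6.52, Col8a2 at 5.25 and Lamb1 at 5.85 stood apart on cerebellum 5, and Col8a2 at 4.61 on hippocampus 2, both of them arrays with high choroid plexus markers. Col4a1 stood apart at 5.01 on SVZ 2, where the mean of the endothelial markers was highest. Col4a2 stood apart at 3.73 on SVZ 5 and at 3.07 on hippocampus 1, and Col4a4 at 5.68 on SVZ 4. Itgae stood apart at 7.69 on cerebellum 1 and at 2.99 on hippocampus 3. Itga6 was low at 4.06 on hippocampus 2, where the other 4 arrays read 5.28 to 5.75.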

How the results depend on the processing

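In SVZ against cerebellum the 1 higher gene became 2 after quantile normalization, when probe sets of a gene were averaged and with weights per region, 3 with array weights, and 0 with dim genes left out, a trended and robust spread, the spike-in covariate, the 4-fold threshold, an adjusted p under 0.01, or without cerebellum 4 and 5. The 2 lower genes became 1 with dim genes left out, which drops Col2a1, and, with Col2a1 as the 1 left, with the spike-in covariate, an adjusted p under 0.01, or without cerebellum 4 and 5; they became 3 with Col5a3 after quantile normalization, median centring, array weights or a trended and robust spread, and 3 with Col23a1 when probe sets were averaged. In hippocampus against cerebellum the 1 higher gene became 0 with dim genes left out, the spike-in covariate, an adjusted p under 0.01, or without cerebellum 4 and 5, 2 with array weights, and 2 without SVZ 2 and hippocampus 2, a setting chosen after seeing the data. The 3 lower genes became 0 with dim genes left out and 1 with the spike-in covariate, the 4-fold threshold, an adjusted p under 0.01, or without cerebellum 4 and 5, and 4 with Col23a1 after median centring and with Lama2 when only the 2 regions were fitted. Leaving out 1 array at a time gave 1 to 2 higher and 2 to 3 lower genes in SVZ, and 0 to 2 and 1 to 4 in hippocampus, with 0 higher without hippocampus 1 or cerebellum 1, 2 or 4, and 1 lower without hippocampus 1 or cerebellum 3. SVZ against hippocampus stayed at 0 throughout. Leaving out dim genes drops those with a mean under 3 over the 15 arrays. Itga3, Col27a1, Col2a1, Col5a3 and Col9a2 were dropped in this way, so the counts with dim genes left out do not test them. Col2a1 stayed called in both comparisons under all 30 settings that tested it. Among differences that did not pass, the sign changed most often for Lamb1 (9 of 30 settings), Col8a2 (8 of 30) and Lamb2 (6 of 31), all in hippocampus against cerebellum, and for Itgav in SVZ against cerebellum (6 of 31). The cause of the other changes was not tested.

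Replicate numbers were not used to pair the arrays in the main fit. Deviations of same-numbered arrays correlated at 0.027 to 0.111, −0.121 to 0.138 and −0.016 to 0.100 in the 3 comparisons. The means were 0.062, 0.047 and 0.030, against −0.016, −0.011 and −0.007 between other numbers. In these comparisons, 5, 3 and 2 of 5 arrays correlated best with their own number. A weak pairing thus showed in SVZ against cerebellum and was less clear in the others. With the replicate block the counts were 1 and 2 in SVZ, and 1 and 2 in hippocampus, where Col5a3 was lost (limma adjusted p = 0.0604). Median centring moved the median difference of all genes by −0.10 and −0.11. Values near the array medians cannot be told from background, and what limits the other genes under 3 was not tested.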
